A study of Mus musculus with 6 samples.

Results

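Splicing factor and RNA helicase genes were examined for AGO2 target peaks in mouse embryonic stem cells. The members were the protein-coding genes of the RefSeq annotation of GRCm38 whose symbol starts with Srsf, Srrm, Hnrnp, Sf3, Ddx or Dhx, which gave 98 of 21900 protein-coding genes. A peak was assigned to a gene when its midpoint lay in the span of that gene, and 42 of the 3292 listed peaks lay in 20 of the 98 members. The rule itself used symbols only and no measured value, but it was set with earlier results of these data known. AGO2 is the Argonaute protein that holds a microRNA (miRNA) and is guided by it to other RNAs.

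All 6 libraries came from 1 mouse embryonic stem cell line with the genotype Spy3-Ago2, cultured in serum medium with LIF, the cytokine that holds mouse stem cells in the undifferentiated state. There were 2 target libraries and 2 miRNA libraries from RNA pulled down with Spy3-AGO2, and 2 input libraries from whole lysate of the same genotype. The labels name E14 in the library names, and they do not say whether replicates were separate cultures or whether the line is a single clone. The peaks form 1 list for the whole series, with a position and strand for each peak, no value per library and a score of 0 throughout, so no spread between replicates can be given for any peak. No source used here says how the input libraries entered the list, and a peak is therefore not shown to be an AGO2 site.

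SR proteins (Srsf genes) bind exons through RNA recognition motifs and recruit the splicing machinery through domains rich in arginine and serine. Proteins of the hnRNP class coat nascent RNA and often act against exon inclusion. SF3A and SF3B are parts of the U2 small nuclear ribonucleoprotein, which recognises the branch point of an intron. DEAD-box (Ddx) and DEAH-box (Dhx) proteins use ATP to rearrange RNA and RNA-protein complexes, in the spliceosome, in ribosome assembly, in translation and in miRNA processing. Many SR and hnRNP genes are known to tune their own RNA by alternative splicing.

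The labelled cell type was checked with miRNA markers in the 2 miRNA libraries, with totals of 12562727 (replicate 1) and 22908172 counts (replicate 2). The 5 embryonic stem cell markers, from the miR-290/miR-295 cluster, took 31.0% of the counts in replicate 1 and 31.3% in replicate 2. The neural markers miR-124-3p and miR-9-5p took 0.988% and 1.66% together, the let-7 family 0.0187% and 0.0154%, the liver marker miR-122-5p 0.000812% and 0.00274%, and the muscle markers 0.000422% and 0.000572%. The sum of the stem cell markers was above the sum of each other list in both libraries, and most of it was miR-290a-5p, with 24.1% and 23.5%. Taken singly, miR-294-3p (0.550% and 0.485%) was below the neural sum in both libraries and miR-292a-3p (1.58% and 1.26%) was below it in replicate 2. The mature sequences of 4 of the 5 stem cell markers are shown because their seeds are among those that AGO2 in these cells offered to target RNAs. Most counts of both libraries came from other miRNAs, whose sequences are not shown. They are RefSeq sequences of GRCm38.p6 from the plus strand of chromosome 7, between 3218639 and 3220837, with the seed (bases 2 to 8) in capitals.
miR-290a-5p: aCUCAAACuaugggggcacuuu
miR-291a-3p: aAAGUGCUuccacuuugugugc
miR-294-3p: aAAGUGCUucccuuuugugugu
miR-295-3p: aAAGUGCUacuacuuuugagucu
The last 3 share 1 seed, and miR-290a-5p has another. The bases under the peaks were not used here, so no seed match in any peak is reported.

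The first question was how many of the splicing and helicase genes carried a peak. At least 1 peak lay in 20 of the 98 members (20.4%, exact Clopper-Pearson 95% interval 12.9 to 29.7), while the share over all 21900 protein-coding genes was 8.33%. Over the 21802 other protein-coding genes alone, it was 8.27% (1804 genes, interval 7.91 to 8.65). These intervals cover counting error only and treat genes as independent draws. RNA abundance was not used here, and the all-gene share includes genes that these cells may not transcribe at all. In a bulk sample, fewer cells with an RNA and less of it per cell cannot be told apart. At least 2 peaks lay in 7 members (7.14%), against 2.90% of all protein-coding genes, and at least 3 peaks in 3 members (3.06%), against 1.45%.

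By prefix, the shares ran from 6.25% to 36.4%. Peaks lay in 4 of 11 Srsf genes (36.4%, interval 10.9 to 69.2), 3 of 9 Sf3 genes (33.3%, 7.49 to 70.1), 1 of 4 Srrm genes (25%, 0.631 to 80.6) and 5 of 21 Hnrnp genes (23.8%, 8.22 to 47.2). Among the helicases, 6 of 37 Ddx genes (16.2%, 6.19 to 32.0) and 1 of 16 Dhx genes (6.25%, 0.158 to 30.2) had one. The intervals of all 6 prefixes overlap, so their order is not settled at these numbers of genes. Taken as classes, 13 of 45 splicing factor genes (28.9%, interval 16.4 to 44.3) and 7 of 53 helicase genes (13.2%, 5.48 to 25.3) had a peak, and these intervals overlap as well. The interval of the helicases includes the all-gene share of 8.33%, whereas that of the splicing factors lies above it. The split into these classes was not planned and was made after seeing the data, so these intervals are a description and not a test. With only peaks at least as wide as the list's median, 5 of 45 splicing factor genes (11.1%) and still 7 of 53 helicase genes (13.2%) had a peak. The share over all protein-coding genes with the same filter was 5.15%. The order of the classes thus turned, and no intervals were computed for these filtered shares.

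**Figure D1:**
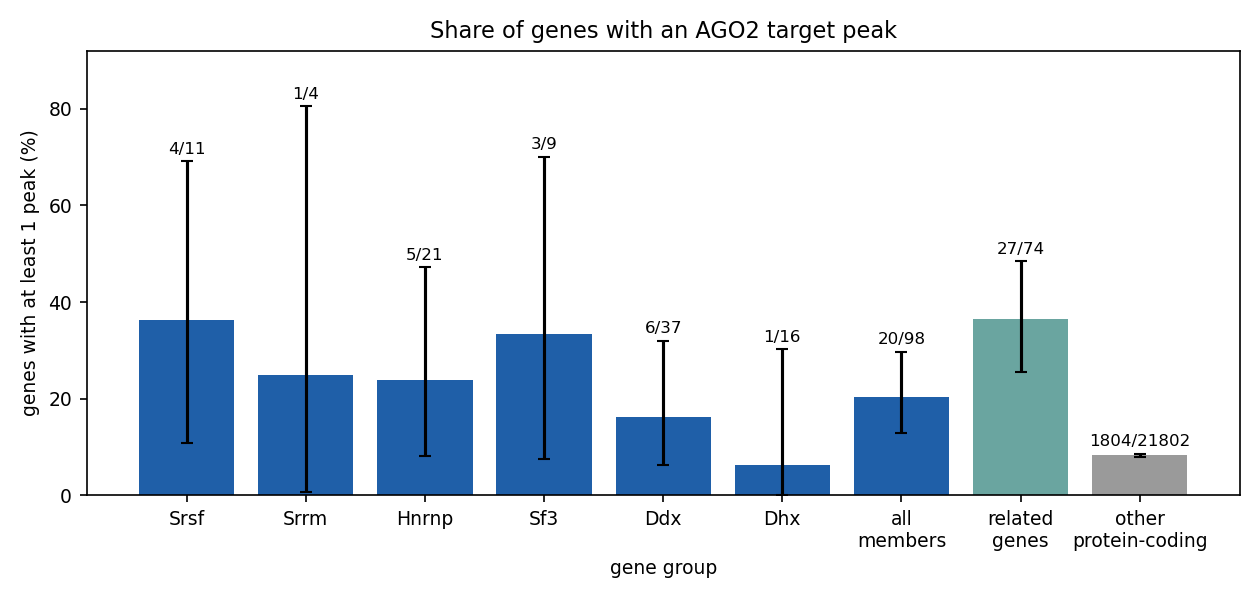
Share of genes with at least 1 peak, in percent, for each symbol prefix, for all 98 members, for 74 related genes outside the prefixes and for the 21802 other protein-coding genes. Bars give the share, whiskers the exact Clopper-Pearson 95% interval, and the numbers above them the genes with a peak over all genes of the group; the whiskers of all 6 prefixes overlap, and the bar of all members stands at 20.4% beside 8.27% for the other genes.

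The members with peaks were shorter genes than those without, with a median span of 15528 nt against 21794.5 nt for the 78 members without a peak. For the other protein-coding genes the order was the opposite, with 35929 nt for genes with a peak and 15943.5 nt for genes without one. The classes of members differed in this. Helicase genes had 13493 nt with a peak and 26863.5 nt without, while splicing factor genes had 17563 and 12967.5 nt, the order of the other genes. The member genes with peaks carried a median of 1.02 peaks per 10000 nt of span, against 0.391 in the other genes with peaks. The median was 1 peak per gene in both groups, so this density is not a property separate from the span. Srrm2 (4.38 peaks per 10000 nt), Ddx5 (3.40), Srsf2 (2.65) and Ddx3x (2.22) had the densest peaks among the members, and Hnrnpc (0.326) and Srsf4 (0.355) the sparsest. Span includes introns, and exon lengths were not used here.

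Peaks per gene were few once Srrm2 was set apart. The 20 members with peaks had 2.1 peaks each on average, and the 19 without Srrm2 had 1.42, against 1.77 in the 1797 other nuclear protein-coding genes with a peak. A single peak was found in 13 of the 20 members (65%), against 65.4% of the other genes with peaks. Another 4 members had 2 peaks, Ddx3x and Ddx5 had 3 each, and Srrm2 had 15. The share of single-peak genes was therefore close in both groups, and the higher mean of the members came from 1 gene, which held 35.7% of all member peaks.

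Srrm2 encodes a large protein with long stretches rich in serine and arginine, which forms part of the scaffold of nuclear speckles, the bodies where splicing factors gather. It spans 34215 nt of chromosome 17 (23790527 to 23824741, plus strand), and only 2 of the 1824 protein-coding genes with a peak had more peaks. Of its 15 peaks, 13 lay in a stretch of 5916 nt (23815776 to 23821691), which is 17.3% of the span. This stretch was marked out after its peaks were seen. One peak lay upstream of it at 23808144 to 23808174, at 51.5% of the span, and 1 downstream of it at 23824017 to 23824056, at 97.9%. No peak of Srrm2 lay in the first 50% of the gene.

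Within Srrm2, neighbouring peaks were separated by a median of 449 nt, with a range of 22 to 7601 nt over 14 gaps. The closest were 3 peaks in a row, at 23820475 to 23820534, 23820557 to 23820586 and 23820609 to 23820656, with 22 nt between each pair. The widest peak of the gene, of 112 nt, lay at 23821387 to 23821498 and the narrowest, of 27 nt, at 23818939 to 23818965. The median width was 48 nt. Together the 15 peaks covered 809 nt, or 2.36% of the span, and inside the dense stretch they covered 12.5% of it. Srrm2 peaks were thus many, short and separate, and none of them was closer than 704 nt to the downstream end by its midpoint. The other 3 members of the prefix, Srrm1, a splicing coactivator gene, and the neural splicing factor genes Srrm3 and Srrm4, had no peak.

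**Figure D2:**
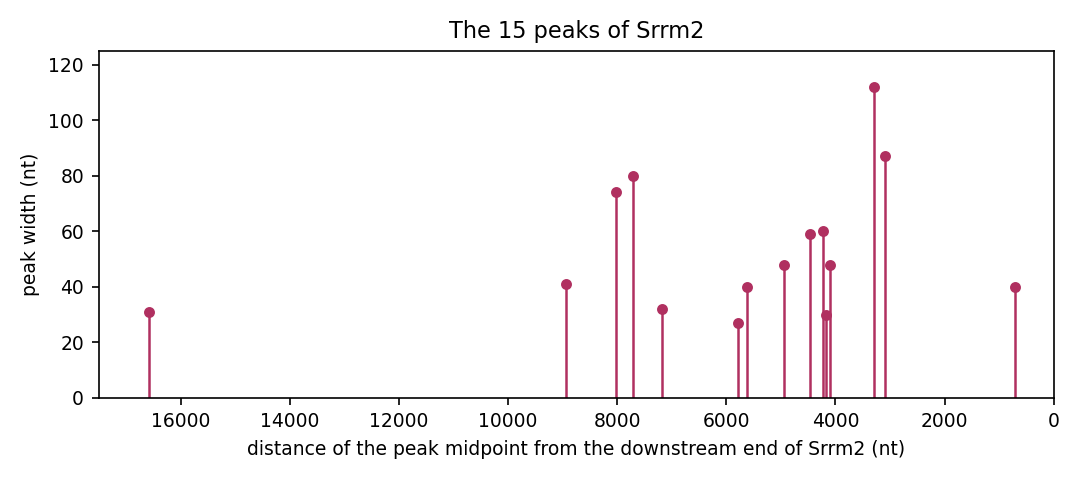
Width of each of the 15 Srrm2 peaks in nt (vertical axis, from 0) against the distance of its midpoint from the downstream end of the gene in nt (horizontal axis, falling towards the right, so that transcription runs left to right). Each line with a point is 1 peak; 13 of them lie between 3093 and 8945 nt from the end, and the other two at 16582 and 704 nt.

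Among the SR protein genes, Srsf1, Srsf2, Srsf4 and Srsf6 had 1 peak each. Srsf1, a founding SR protein, had its peak at 88053122 to 88053183 on chromosome 11, 604 nt from the downstream end. Srsf2, a speckle protein also known as SC35, had it at 116850164 to 116850211 on the same chromosome, 290 nt from the end. These peaks lay late in the gene, at 91.7% of the span in Srsf1 and 92.3% in Srsf2. The peak of Srsf6 lay at 66.8% (chromosome 2, 162935234 to 162935280), which in this gene of 5614 nt is 1864 nt from the end. The peak of Srsf4 was the most upstream of all member peaks, at 22.7% of the span and 21789 nt from the end (chromosome 4, 131879916 to 131879956). All 4 peaks were 41 to 62 nt wide. Srsf3, Srsf5, Srsf7, Srsf9, Srsf10, Srsf11 and Srsf12 had no listed peak.

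The hnRNP genes carried 7 peaks in 5 genes. Hnrnpu, whose protein binds chromatin-associated RNA, had 2 peaks in the upstream part of its span on chromosome 1, at 29.6% (178333622 to 178333647, 26 nt wide) and at 41.9% (178331402 to 178331462). Its relative Hnrnpul1 on chromosome 7 had 2 peaks in the last 10%, at 90.2% (25724556 to 25724612) and at 99.7% (25721232 to 25721324), the second only 117 nt from the end. Neither Hnrnpu peak was within 10000 nt of the downstream end. Hnrnph1, whose protein binds G-rich RNA, had 1 peak 188 nt from its end, at 98.3% (chromosome 11, 50386304 to 50386376). Hnrnpdl had 1 at 59.2% (chromosome 5, 100036152 to 100036196), and Hnrnpc, whose protein binds uridine tracts, 1 at 64.3% (chromosome 14, 52084300 to 52084337). No peak was listed in Hnrnpa0, Hnrnpa1, Hnrnpa2b1, Hnrnpa3, Hnrnpab, Hnrnpd, Hnrnpf, Hnrnph2, Hnrnph3, Hnrnpk, Hnrnpl, Hnrnpll, Hnrnpm, Hnrnpr or Hnrnpul2, nor in Hnrnpa1l2-ps2, which the annotation lists as protein-coding despite its pseudogene-like name. The hnRNP A and hnRNP H genes are similar to each other and to processed copies in the genome, and no source used here states the treatment of reads with several matches. A listed 0 in these genes is therefore uncertain.

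The SF3 complex genes with peaks were Sf3a1, Sf3a3 and Sf3b6, the last encoding the subunit that contacts the branch point. None of their peaks lay in the last 10% of the gene. Sf3b6 had its peak at 24.1% of the span (chromosome 12, 4820000 to 4820055), Sf3a1 at 33.0% (chromosome 11, 4167660 to 4167706) and Sf3a3 at 83.2% (chromosome 4, 124729458 to 124729493). The distances to the end were 7632, 14858 and 2948 nt, all beyond 2000 nt. Sf3a2, Sf3b1, Sf3b2, Sf3b3, Sf3b4 and Sf3b5 had no peak, among them the gene of the large scaffold subunit, Sf3b1.

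Helicase peaks fell mostly in genes of 1 role list, that of the miRNA pathway, mRNA decay and translation. Peaks lay in 4 of the 7 genes on that list, and these 4 genes held 10 of the 13 helicase peaks. In the spliceosomal list 1 of 11 genes had a peak, and in the ribosome biogenesis list 1 of 15. None of the 3 innate RNA sensor genes, 4 germline genes and 2 mitochondrial genes had one, and of the 11 helicase genes on no list, Ddx20 did. All of these counts stand beside the share of 8.33% over all protein-coding genes, and the difference between the lists was not tested. Peaks of 1 gene are not independent, and the lists were drawn up with earlier results of these data known.

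Ddx5 and Ddx17 encode close relatives that act as cofactors of the Microprocessor, the nuclear complex that cuts miRNA precursors. Ddx5 had 3 peaks on chromosome 11, at 106782572 to 106782631, 106781952 to 106782137 and 106781583 to 106781634, in the direction of transcription. The middle one, 186 nt wide, was the widest of all member peaks. They lay 2246, 1690 and 1254 nt from the end, at 74.6%, 80.9% and 85.8% of the span. Ddx17 had 2 peaks of 40 and 70 nt on chromosome 15, at 79529682 to 79529721 and 79529399 to 79529468, which lay 2006 and 1738 nt from the end. Both genes thus carried clusters of peaks short of the very end of the gene.

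Ddx3x, a helicase gene of the X chromosome whose protein acts in translation initiation, had its 3 peaks in the last 10%. They were at 13292945 to 13292998, 13293393 to 13293473 and 13293499 to 13293632, with 1016, 555 and 422 nt to the end and widths of 54, 81 and 134 nt. The last 2 of them were 25 nt apart. Its Y-linked copy Ddx3y had no peak, and because the pair is similar in sequence, the split of peaks between them depends on a treatment of multiple matches that is not given here. Dhx9, whose protein has been found with the RISC complex in human cells, had a wide peak of 155 nt at 91.8% of the span (chromosome 1, 153458307 to 153458461) and a narrow one of 40 nt at 47.0% (153472673 to 153472712), 14211 nt apart. Ddx6, whose protein works with the CCR4-NOT complex in miRNA-mediated silencing, had no peak, nor had Dhx29 and Dhx36.

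The remaining helicase peaks were single. Ddx20 encodes Gemin3, a member of the SMN complex that assembles spliceosomal ribonucleoproteins, and had a peak of 96 nt at 51.1% of its span (chromosome 3, 105682878 to 105682973). Ddx52, whose yeast counterpart acts in ribosome assembly, had 1 peak 324 nt from its end, at 98.5% (chromosome 11, 83962730 to 83962799). Ddx39b, which acts in spliceosome assembly and mRNA export, had 1 at 45.7% (chromosome 17, 35247177 to 35247247). All 71 nt of this Ddx39b peak lay inside the annotated small nucleolar RNA gene Gm25128 (35247175 to 35247250), so the peak cannot be told apart from the small nucleolar RNA. It was the only 1 of the 42 member peaks that overlapped another annotated gene. Of the 3120 peaks in other protein-coding genes, 21 (0.673%) had their midpoint in a small nucleolar RNA gene. Without this peak, Ddx39b would have none and the spliceosomal list would hold no gene with a peak.

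No peak was listed in the spliceosomal helicase genes Ddx23, Ddx39a, Ddx41, Ddx42, Ddx46, Dhx8, Dhx15, Dhx16, Dhx35 and Dhx38. The same held for the ribosome biogenesis genes Ddx10, Ddx18, Ddx21, Ddx24, Ddx27, Ddx31, Ddx47, Ddx49, Ddx51, Ddx54, Ddx55, Ddx56, Dhx33 and Dhx37. The innate sensor genes Ddx58, Ddx60 and Dhx58, the germline genes Ddx4, Ddx25, Ddx43 and Ddx3y, and the mitochondrial genes Ddx28 and Dhx30 were also without peaks, as were Ddx1, Ddx11, Ddx19a, Ddx19b, Ddx50, Ddx59, Dhx32, Dhx34, Dhx40 and Dhx57. A gene without a listed peak is not shown to be free of AGO2, since the threshold of the list is not given here. Within 5000 nt past the downstream end of the 88 members with a known strand, 0 peaks outside protein-coding genes were found. Of the 3292 listed peaks, 3120 lay in other protein-coding genes and 42 in members, so few peaks could be counted here. The same count was not made for other genes, so this 0 is not shown to be a trait of the members. A peak 894.5 nt past the end of Ddx27 was not counted because it lies inside Znfx1.

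**Figure D3:**
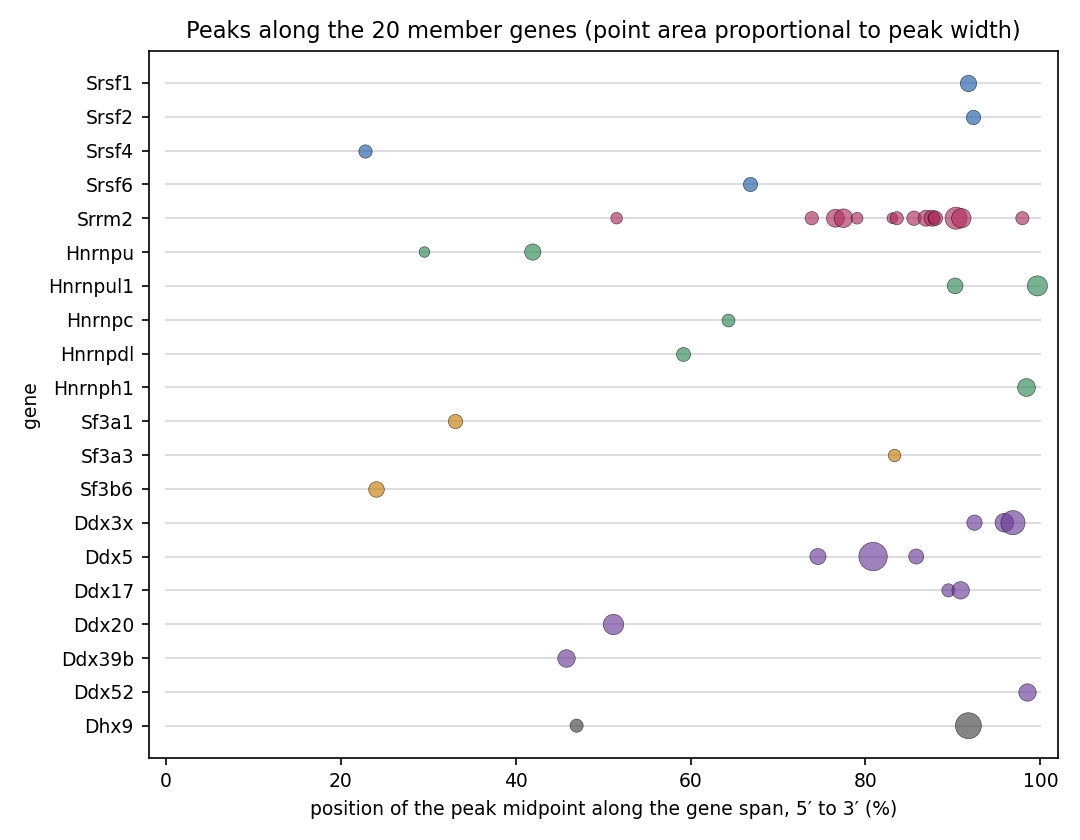
Position of each of the 42 member peaks along its gene, in percent of the span from the 5′ to the 3′ end (horizontal axis), for the 20 genes with peaks (vertical axis), coloured by prefix, with point area proportional to peak width. The peaks of Ddx3x lie between 92.5% and 96.9%, those of Srrm2 between 51.5% and 97.9%, and no peak lies before 22.7%.

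Position was then compared along the gene, in the direction of transcription. The median position of the 42 member peaks was 84.6% of the span, and 83.2% without Srrm2, against 83.8% for 3175 assignments of peaks to other nuclear protein-coding genes. The last 10% of the span held 14 of 42 member peaks (33.3%, interval 19.6 to 49.5), 11 of 27 without Srrm2 (40.7%, 22.4 to 61.2) and 41.9% of those in other genes (40.2 to 43.7). The interval of the members includes the value of the other genes. The first 10% of the span held 0 member peaks, against 3.46% in the other genes, and the first 50% of the span held 7 of 42 (16.7%) and, without Srrm2, 7 of 27 (25.9%), against 21.7% in the other genes, so the direction of this difference turns with Srrm2. The 7 upstream peaks belonged to Srsf4, Sf3b6, Hnrnpu with 2, Sf3a1, Ddx39b and Dhx9.

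Counted by genes, 9 of 20 members (45.0%) had a peak in the last 10% and 10 (50%) had one within 2000 nt of the downstream end, against 51.0% and 47.0% of the other genes with peaks. With 1 value per gene, which keeps Srrm2 from weighing 15 times, the median position was 75.1%. By class, the 13 helicase peaks had a median position of 89.5% and the 14 peaks of Srsf, Hnrnp and Sf3 genes one of 65.6%. In distance the medians were 1737.5 and 3185.25 nt from the end. These 2 medians rest on 7 and 12 genes, and both classes reached from before the middle to the last 10%.

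**Figure D4:**
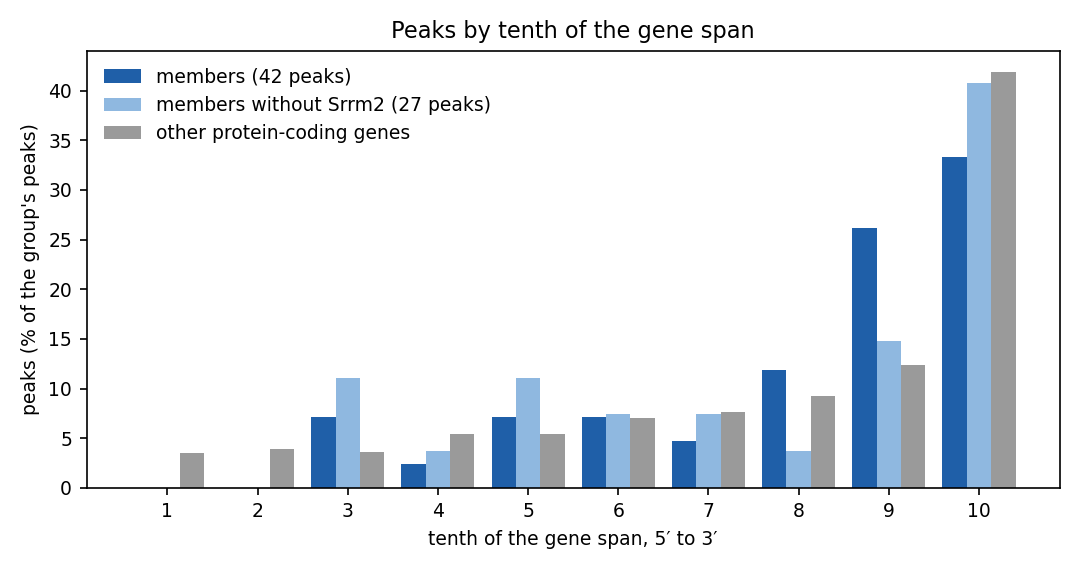
Share of peaks, in percent of the group's peaks, in steps of 10% of the gene span from the 5′ to the 3′ end, for all members, members without Srrm2 and other protein-coding genes. The last 10% holds 33.3%, 40.7% and 41.9%, and the part from 80% to 90%, where 7 of the 15 Srrm2 peaks lie, 26.2%, 14.8% and 12.4%.

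Pooled member peaks had a median width near that of peaks in other genes, with helicase peaks above it and splicing factor peaks below it. The member median was 55 nt, with quartiles of 40.25 and 72.5 nt and a range of 26 to 186 nt. In other genes the median was 59 nt and the quartiles were 45 and 85 nt. Without Srrm2 the member median was 57 nt. A width of at least 100 nt was reached by 4 of 42 member peaks (9.52%), against 17.5% in other genes, and these were 1 each in Ddx5, Dhx9, Ddx3x and Srrm2. Helicase peaks had a median of 70 nt and those of Srsf, Hnrnp and Sf3 genes 47.5 nt, and no peak of those 3 prefixes was wider than 93 nt. Peaks of 1 gene share their RNA and are not independent, and these differences were not tested.

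Strand and spacing were properties that the choice of members did not use. All 42 member peaks lay on the strand of their gene, as did 97.2% of 2527 assignments in other genes with a known strand. Neighbouring peaks of 1 member gene were a median of 427 nt apart over 22 gaps, and 414 nt over 8 gaps without Srrm2, against 1481.5 nt over 1374 gaps in other genes. A gap under 1000 nt was found in 16 of 22 cases (72.7%), against 45.1% in other genes, and a gap under 50 nt in 3 (13.6%), against 15.5%. Srrm2 alone gave 11 of those 16 gaps, and without it 5 of 8 gaps (62.5%) were under 1000 nt. The median span of genes with peaks was 15528 nt in members and 35929 nt in other genes, and its part in the gaps was not tested. Of the 20 members with peaks, 6 lay on chromosome 11, which holds 13 of the 98 members. The share of all protein-coding genes of chromosome 11 with a peak was not counted, so no excess can be read from this.

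Related splicing and helicase genes outside these prefixes were counted from a list of 74, drawn up with earlier results of these data known. Of them, 27 (36.5%, interval 25.6 to 48.5) had a peak, 51 peaks in all. Prpf8, the core protein of the spliceosome, had 6, the spliceosomal helicase gene Snrnp200 had 5, and Eif4a1, the helicase gene of translation initiation, had 5. Ptbp1, a splicing repressor gene, had 4, and Pcbp2 and the speckle gene Son had 3 each. Celf1, Ewsr1, Pspc1 and Rbm25 had 2 each. Genes with a single peak included Aqr, Luc7l, Mbnl3, Mov10, Nono, Prpf19, Ptbp2, Qk, Raly, Rbfox2, Rbm5, Sfpq, Srpk1, Srpk2, Syncrip and Tardbp. Translation initiation and elongation factor genes (symbols starting with Eif or Eef, 3 of which are also on that list) had peaks in 25 of 71 cases (35.2%, 24.2 to 47.5). The 20.4% of the members thus stood between these groups and all protein-coding genes, and its interval overlaps those of both groups.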

How the data were processed

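The authors deposited 1 peak list for the series and raw counts per mature miRNA for each of the 2 miRNA libraries. The score in the deposited list was 0 for all 3292 peaks, and its other values are peak positions. Per the submitters' processing notes, the build was mm10 and the tools included STAR 2.5.2a, Bowtie2 2.4.2, cutadapt 2.10, UMI-tools and deepTools 3.1.3, without roles. The peak caller, its threshold and any pooling of replicates were not given in the sources used here. Peak numbers reach 30438, so the list may be a selection.

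Each peak was assigned, by its midpoint, to every protein-coding gene span (RefSeq GRCm38.p6, the assembly of mm10) that holds it, counted from 1 and irrespective of strand. Gene strands came from RefSeq's promoter table (88 of 98 members), and otherwise the peak's strand gave the direction. Mitochondrial genes were left out of positions, widths and gaps. Intervals are exact Clopper-Pearson at 95%. With 1 list, no test between groups was possible. Members and lists were chosen with earlier results of these data known. Every member with a peak is named, members without one by role list, and related genes where they have a peak, except for a result not reported here; members on no list, and the dense stretch of Srrm2, were added after values were seen. Of 500 simulated peaks with midpoints placed inside the span of a gene with a known strand, 100% were assigned to that gene. This checks the code only, and not the peak list. Python 3.11.15, numpy 2.4.6, scipy 1.17.1 and pandas 2.3.3 were used. The planned search for seed matches in peaks was not run.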

Additional observations from a re-analysis of the deposited data

How the results depend on the processing

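Assigning peaks by any overlap or by full containment left 20 of 98 members with a peak. Of 77 alternative values, 69 stayed within the interval or limit of the value reported and 8 did not. The limits were loose for small groups, such as the interval of 0.631 to 80.6 for the Srrm share. For the stem cell markers, either of 2 libraries alone always lies within 1 standard deviation of their mean, so these values could not move. The tally is therefore not a measure of robustness. With only peaks at least as wide as the list's median, the share of members with a peak was 12.2% and that of all protein-coding genes 5.15%, while the Srsf share was 9.09% and the Sf3 share 0% (0 of 9 genes). By class, added after seeing the data, the splicing factors then stood at 11.1% in place of 28.9% and the helicases at 13.2% as before; fewer peaks enter here by construction. The share of all protein-coding genes was 7.87% with peaks in exactly 1 protein-coding gene. With spans extended by 1000 nt, chosen after seeing the data and run on genes with a known strand, it was 8.83%, and Ddx27 gained a peak that lies on the other strand inside Znfx1. The median position was 75.1% with 1 value per gene. Without Srrm2, peaks per gene were 1.42 in place of 2.1, which the tally still counted as within its limit, so that limit was loose too. The stem cell marker share ranged from 31.0% to 31.3% when either miRNA library was left out. No paired analysis was possible because the peak list has no value per replicate. Depth behind single peaks is unknown.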
